A study of Mus musculus with 7 samples.

Results

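The miRNAs of 10.5 dpp testis (library T10) were compared with those of 6.5 dpp testis (library T6), both taken from mice without any culture. These are 2 of the 7 libraries of the series, and all 331 listed mature miRNAs were followed in both. Both testes came from CD1 mice, an outbred strain, with no culture medium supplement, and the age field of the sample labels rounds the ages to 6 and 10 dpp. Whether testes of several mice were pooled is not given in the sources used here. Each age had 1 library, so no difference could be set against the spread between animals, and the comparison is descriptive. The other libraries were T6-12K and T10-12K, explants of testes of the same starting ages kept for 12 days in medium with KSR (a serum replacement), T6-12A and T10-12A, the same with AlbuMAX I (a lipid-rich bovine albumin), and TAD, adult testis of 2 months.

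In the mouse, the testis of the first postnatal week holds spermatogonia as the germ cells among Sertoli, peritubular and interstitial cells, and the first germ cells enter meiotic prophase during the following days. A mature miRNA is a short RNA that guides Argonaute proteins to messenger RNAs, mainly through its seed, the bases 2 to 8 from its 5′ end. miRNAs known from the male germ line include the miR-34 and miR-449 family, abundant in meiotic and haploid germ cells, and rapidly evolving clusters on the X chromosome that are abundant in testis, whereas the let-7 family is known for accumulating in differentiating cells and for repressing Lin28 and Ras transcripts.

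Mature sequences from RefSeq on GRCm38.p6 are given for miRNAs on which the comparison turned, with the seed in capitals. The first set belongs to the X-linked testis clusters, which as a group stood higher in T10.
miR-741-3p: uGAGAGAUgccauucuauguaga
miR-743a-3p: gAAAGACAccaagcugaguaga
miR-743b-3p: gAAAGACAucaugcugaauaga
miR-880-3p: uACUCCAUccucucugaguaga
miR-881-3p: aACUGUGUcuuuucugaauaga
miR-465a-3p: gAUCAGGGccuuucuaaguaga
miR-871-3p: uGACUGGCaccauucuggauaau
miR-470-5p: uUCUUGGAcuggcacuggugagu
miR-743b-5p: uGUUCAGAcugguguccauca
miR-547-3p: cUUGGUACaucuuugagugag
miR-201-5p: uACUCAGUaaggcauuguucuu
miR-883a-3p: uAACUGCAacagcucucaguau
The let-7 family and miR-98 share one seed and differ in the bases after it. They are shown because most members stood lower in T10.
let-7a-5p: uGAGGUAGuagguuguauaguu
let-7b-5p: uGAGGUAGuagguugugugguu
let-7c-5p: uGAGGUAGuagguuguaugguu
let-7d-5p: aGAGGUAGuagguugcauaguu
let-7e-5p: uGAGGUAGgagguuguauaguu
let-7f-5p: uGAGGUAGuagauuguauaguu
let-7g-5p: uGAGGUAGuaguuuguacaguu
let-7i-5p: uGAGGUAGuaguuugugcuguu
miR-98-5p: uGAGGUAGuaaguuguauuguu
The next set holds other miRNAs that were higher in T10, with the relatives miR-449a-5p, miR-200b-3p and miR-30a-5p for comparison.
miR-204-5p: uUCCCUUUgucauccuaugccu
miR-34a-5p: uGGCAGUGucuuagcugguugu
miR-449a-5p: uGGCAGUGuauuguuagcuggu
miR-203-3p: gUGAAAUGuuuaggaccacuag
miR-200a-3p: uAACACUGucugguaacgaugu
miR-200b-3p: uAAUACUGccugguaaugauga
miR-429-3p: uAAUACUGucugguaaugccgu
miR-19a-3p: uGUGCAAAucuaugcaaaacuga
miR-342-5p: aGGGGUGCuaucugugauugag
miR-342-3p: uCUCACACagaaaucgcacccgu
miR-339-5p: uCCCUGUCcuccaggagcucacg
miR-30f: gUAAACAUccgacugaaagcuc
miR-30a-5p: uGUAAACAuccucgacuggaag
The last set was lower in T10.
miR-540-3p: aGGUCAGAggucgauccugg
miR-380-3p: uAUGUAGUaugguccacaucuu
miR-335-5p: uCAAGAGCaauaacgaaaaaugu
miR-295-3p: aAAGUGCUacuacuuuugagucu
miR-3057-5p: aUUGGAGCugagauucugcgggau

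T6 held 13363593 and T10 13397407 estimated reads on listed miRNAs, and the other libraries between 1628770 (TAD) and 10793767. Levels are given as CPM, the reads of a miRNA after the reads on all listed miRNAs of its library were scaled to a total of 1000000. A miRNA was counted as higher or lower when its CPM differed by at least 2-fold and the 95% interval of the log2 ratio left out 0, among the 241 miRNAs whose CPM averaged 10 or more over T6 and T10. All intervals cover counting error only. By this rule 20 miRNAs (8.30%) were higher in T10, 7 (2.90%) were lower and 214 were neither. With the values as deposited 24 were higher and 3 lower, and with median-of-ratios factors 23 and 3. Among the 117 miRNAs averaging 100 CPM or more, 6 were higher (5.13%) and 2 lower (1.71%). The median log2 ratio of the 241 miRNAs was -0.07, with quartiles of -0.34 and 0.41, and 168 (69.7%) lay within 1.5-fold. The ratio was above 0 for 105 miRNAs (43.6%) and below 0 for 136 (56.4%). At this depth the interval left out 0 for 199 of the 241, so counting error was small beside the differences, while variation between animals was not measured.

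**Figure D1:**
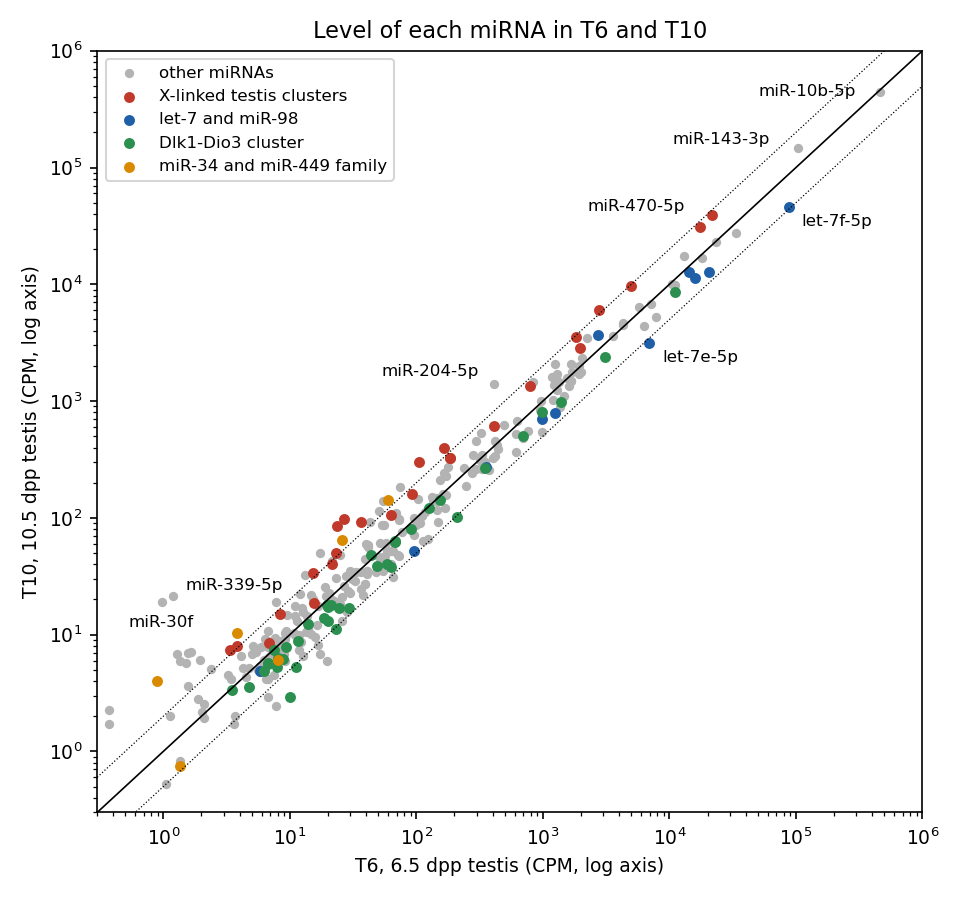
Level of each miRNA with reads in both libraries, as CPM on log axes, in T6 (horizontal) and T10 (vertical). The solid line marks equal levels and the dotted lines 2-fold differences. The X-linked testis miRNAs (red) that passed the filter of 10 CPM all lie above the line of equal levels, and let-7f-5p and let-7e-5p (blue) near or below the lower dotted line.

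The composition of the most abundant miRNAs was largely shared. The 10 most abundant miRNAs took 80.3% of the reads in T6 and 80.5% in T10, and 9 of them were in both sets. miR-10b-5p, encoded within the HoxD cluster in an intron of Hoxd3 and Hoxd4 (chr2:74726070-74726137), was the most abundant miRNA at both ages, with 459720 CPM in T6 and 445566 CPM in T10, a log2 ratio of -0.05 that turned to 0.03 with the values as deposited and 0.01 with median-of-ratios factors. miR-143-3p, known from smooth muscle and other mesenchymal cells, was the next, with 103729 and 145909 CPM (log2 ratio 0.49). let-7f-5p followed with 88240 CPM in T6 and 45639 CPM in T10 (log2 ratio -0.95). Between the libraries 10.0% of the reads were redistributed. The 3 largest gains, those of miR-143-3p (42179 CPM), miR-470-5p (17516 CPM) and miR-871-3p (13267 CPM), made up 72.9% of all gains. let-7f-5p decreased by 42600 CPM and miR-10b-5p decreased by 14154 CPM, which made up 56.7% of all losses. None of these 5 miRNAs reached a 2-fold difference, so most of the reads that moved belonged to miRNAs outside the 27 counted as higher or lower.

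Of the 26 listed miRNAs of the X-linked testis clusters, 22 passed the filter, and every one of the 22 stood higher in T10 than in T6. Among them miR-743a-5p, at 8.31 and 15.2 CPM, passed the filter only through T10. Their median log2 ratio was 0.89, with a range from 0.27 to 1.85, against -0.07 for all 241 miRNAs. By the 2-fold rule 8 of the 22 rose and none fell, where 8.30% of all miRNAs rose. Together the 26 took 5.28% of the reads in T6 (95% Wilson interval 5.27 to 5.30%) and 9.59% in T10 (9.58 to 9.61%). Whether a group like this reflects more cells of a type or more RNA per cell cannot be told apart in whole testis.

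The most abundant members were just short of 2-fold. miR-470-5p was at 21742 CPM in T6 and 39258 CPM in T10 (log2 ratio 0.85), and miR-871-3p at 17386 and 30652 CPM (0.82). miR-741-3p was at 4960 and 9606 CPM (0.95). miR-881-3p was the most abundant member that passed the 2-fold rule, at 2785 CPM in T6 and 6046 CPM in T10 (log2 ratio 1.12, interval 1.10 to 1.14). In TAD these 4 were at 64587, 33111, 11922 and 13632 CPM.

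The larger ratios belonged to less abundant members. miR-201-5p rose from 26.9 to 97.1 CPM (log2 ratio 1.85, interval 1.69 to 2.02) and miR-743b-5p from 23.6 to 84.3 CPM (1.83, interval 1.65 to 2.01). miR-547-3p rose from 105 to 298 CPM (1.51), miR-883a-3p from 36.4 to 91.4 CPM (1.33) and miR-743b-3p from 166 to 397 CPM (1.26). miR-880-3p rose from 15.2 to 34.0 CPM (1.16) and miR-743a-3p from 23.2 to 50.2 CPM (1.11). At the other end, miR-883b-5p was at 15.6 and 18.8 CPM (0.27, interval 0.01 to 0.54). Of the 4 members below the filter, miR-471-3p (6.88 and 8.51 CPM), miR-883b-3p (3.82 and 7.91 CPM) and miR-741-5p (3.37 and 7.31 CPM) were also higher in T10, and miR-465b-5p was at 0.75 CPM in T6 and listed at 0 in T10.

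These miRNAs lie between chrX:66776757 and chrX:67988451 on GRCm38, and those given with a position here are on the minus strand, outside other annotated genes. One run of hairpins within 10 kb of each other, chrX:66776757-66814025, holds 15 of the passing miRNAs, among them miR-470-5p, miR-741-3p, miR-743a, miR-743b, miR-871 and miR-881, with a median log2 ratio of 0.93 and 6 that rose. The neighbouring run with the miR-465 hairpins, chrX:66825955-66839125, holds 5, with log2 ratios from 0.56 to 0.79. miR-201 and miR-547 lie farther on, at chrX:67988096-67988161 and chrX:67988374-67988451, and both rose. The 14 passing miRNAs that map elsewhere on the X chromosome, which include the miR-322 cluster, miR-221 and miR-222, had a median of -0.19, with 4 above 0 and 10 below, and none was counted as higher or lower. The 141 passing miRNAs that map to a single autosome had a median of -0.11, with 9 that rose and 6 that fell. Left out of these chromosome counts were passing miRNAs without a matched sequence, among them miR-34c-5p and miR-1957a. Those with hairpins on several chromosomes were left out too. On the X chromosome, then, the positive ratios belonged mainly to the testis clusters.

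The mature sequences of the clusters had a common feature outside the seed. Of the 13 listed 3p arms of the group with a sequence, 8 (61.5%) end in UAGA at their 3′ end, or 6 of 11 distinct sequences, among them miR-741-3p, miR-743a-3p, miR-743b-3p, miR-880-3p, miR-881-3p and the miR-465 arms. None of the 13 5p arms and none of the 262 other listed miRNAs with a sequence ended in these letters. This feature was looked for after the sequences had been seen. Some seeds were shared within the clusters. miR-743a-3p and miR-743b-3p, which both rose, have AAAGACA, the 3p arms of miR-465a, miR-465b and miR-465c have AUCAGGG, miR-871-5p and miR-743a-5p have AUUCAGA, and miR-465a-5p and miR-465c-5p have AUUUAGA. miR-465a-3p, miR-465b-3p and miR-465c-3p have the same mature sequence and were listed with 1243, 2485 and 2485 reads in T6, so the table cannot separate them, and the 22 passing members represent 20 distinct sequences.

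**Figure D2:**
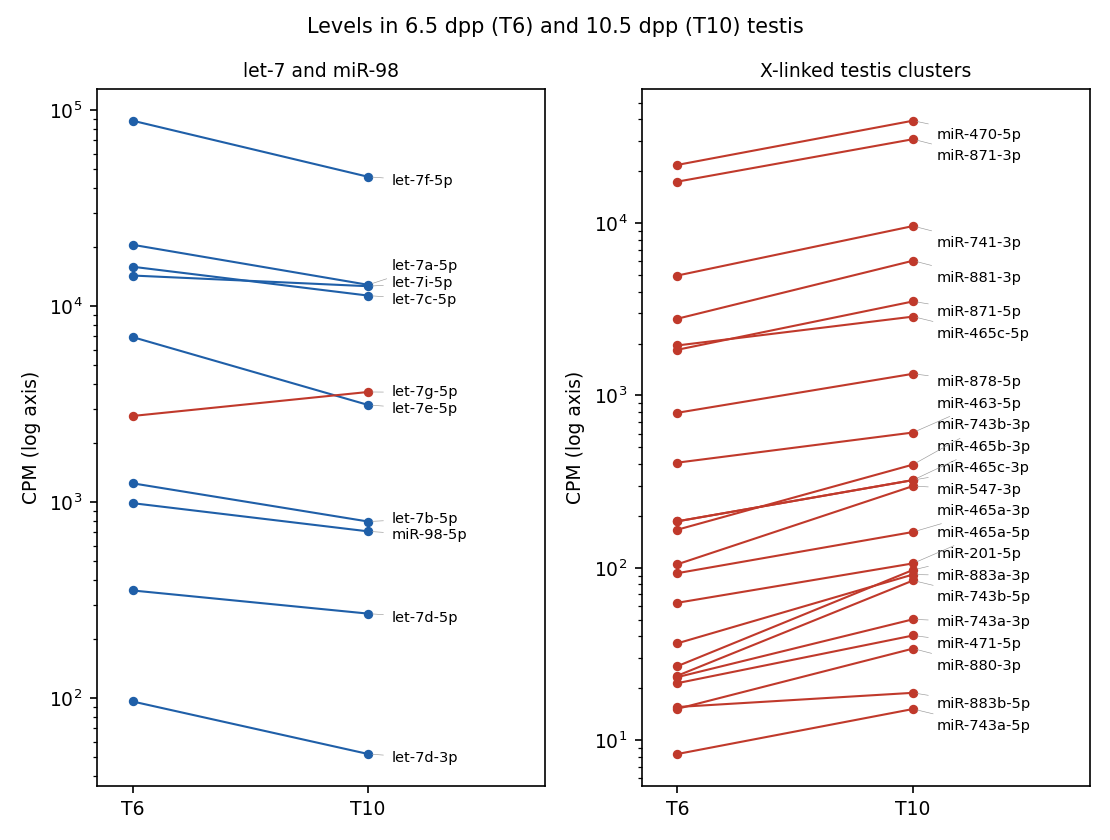
Levels in T6 and T10, as CPM on log axes, of the members that passed the filter of 10 CPM, for let-7 and miR-98 (left) and the X-linked testis clusters (right), with 1 line per miRNA, red where the level was higher in T10 and blue where it was lower. On the left let-7g-5p alone runs upward among 10 lines, and on the right all 22 do.

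The let-7 family moved the other way. Of 11 listed members 10 passed the filter, 9 had a ratio below 0 and 1 above, and the median log2 ratio was -0.57, against 56.4% of ratios below 0 and a median of -0.07 among all 241. By the 2-fold rule only let-7e-5p fell, where 2.90% of all miRNAs fell. The family took 15.1% of the reads in T6 (interval 15.1 to 15.2%) and 9.10% in T10 (9.09 to 9.12%).

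let-7e-5p fell from 6948 to 3129 CPM, a log2 ratio of -1.15 (interval -1.17 to -1.13), and was at 1221 CPM in TAD. let-7f-5p, at 88240 and 45639 CPM, was just inside 2-fold, and it alone accounted for most of the reads that left the family. let-7a-5p was at 20544 and 12831 CPM (-0.68), let-7b-5p at 1247 and 796 CPM (-0.65) and let-7c-5p at 15869 and 11307 CPM (-0.49). let-7i-5p differed least among those below 0, with 14313 and 12623 CPM (-0.18). The exception was let-7g-5p, at 2749 CPM in T6 and 3646 CPM in T10, a log2 ratio of 0.41 (interval 0.39 to 0.43).

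The other 8 members with the seed GAGGUAG differ from let-7a-5p by between 1 and 4 bases outside the seed. Counted from the 5′ end, with the base of let-7a-5p first, let-7e-5p has U9G, let-7f-5p G12A, let-7c-5p A19G, let-7b-5p A17G and A19G, let-7g-5p G12U and U18C, and let-7i-5p G12U, A17G, U18C and A19U. let-7g-5p and let-7i-5p, which share G12U and U18C, had the most positive ratios of the 9, 0.41 and -0.18. How reads that match several members were divided is not given in the sources used here, so the split between close members such as let-7a-5p, let-7c-5p and let-7f-5p is uncertain.

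The clustered neighbours of the family were followed as well. On chr13:48536012-48538272, where let-7a-1, let-7f-1 and let-7d lie together in the non-coding gene 6720427I07Rik, all 4 passing arms were below 0, with a median of -0.78. On chr17:17830352-17830879, in an intron of Spaca6, let-7e-5p, miR-125a-5p and miR-125a-3p were all below 0, at -1.15, -0.16 and -0.54. miR-99b-5p, from the same region, was at 33854 CPM in T6 and 27437 CPM in T10 (-0.30). The cluster of let-7c with miR-99a on chr16:77598936-77599750 was mixed, with let-7c-5p at -0.49 and miR-99a-5p at 0.17. let-7g lies in an intron of Wdr82 (chr9:106178840-106178927).

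The Dlk1-Dio3 region of chromosome 12 carries an imprinted group of miRNAs that are expressed from the maternal chromosome. Of 38 listed members 26 passed the filter, and 25 of these had a ratio below 0, with a median of -0.36 and a range from -1.04 to 0.12, against 56.4% of ratios below 0 and a median of -0.07 among all 241. Among those below 0, miR-379-3p, at 11.6 and 8.73 CPM, passed the filter only through T6. The 2 that fell were miR-540-3p, from 209 to 102 CPM (log2 ratio -1.04), and miR-380-3p, from 23.1 to 11.3 CPM (-1.04), where 2.90% of all miRNAs fell. With median-of-ratios factors both were at -0.98 and with the values as deposited at -0.96, so that no member was then counted as lower. The most abundant, miR-127-3p, which lies opposite an exon of Rtl1, was at 10974 and 8673 CPM (-0.34), and miR-411-5p at 3087 and 2398 CPM (-0.36). miR-136-5p, also opposite Rtl1, was the one member above 0, at 43.9 and 47.6 CPM, with an interval of -0.04 to 0.28 that spans 0. The region's summed share was 1.87% in T6 and 1.46% in T10. In the run with miR-411 (chr12:109709060-109743795) all 15 passing miRNAs were below 0, and in that with miR-127 (chr12:109585789-109595388) 6 of 7 were.

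**Figure D3:**
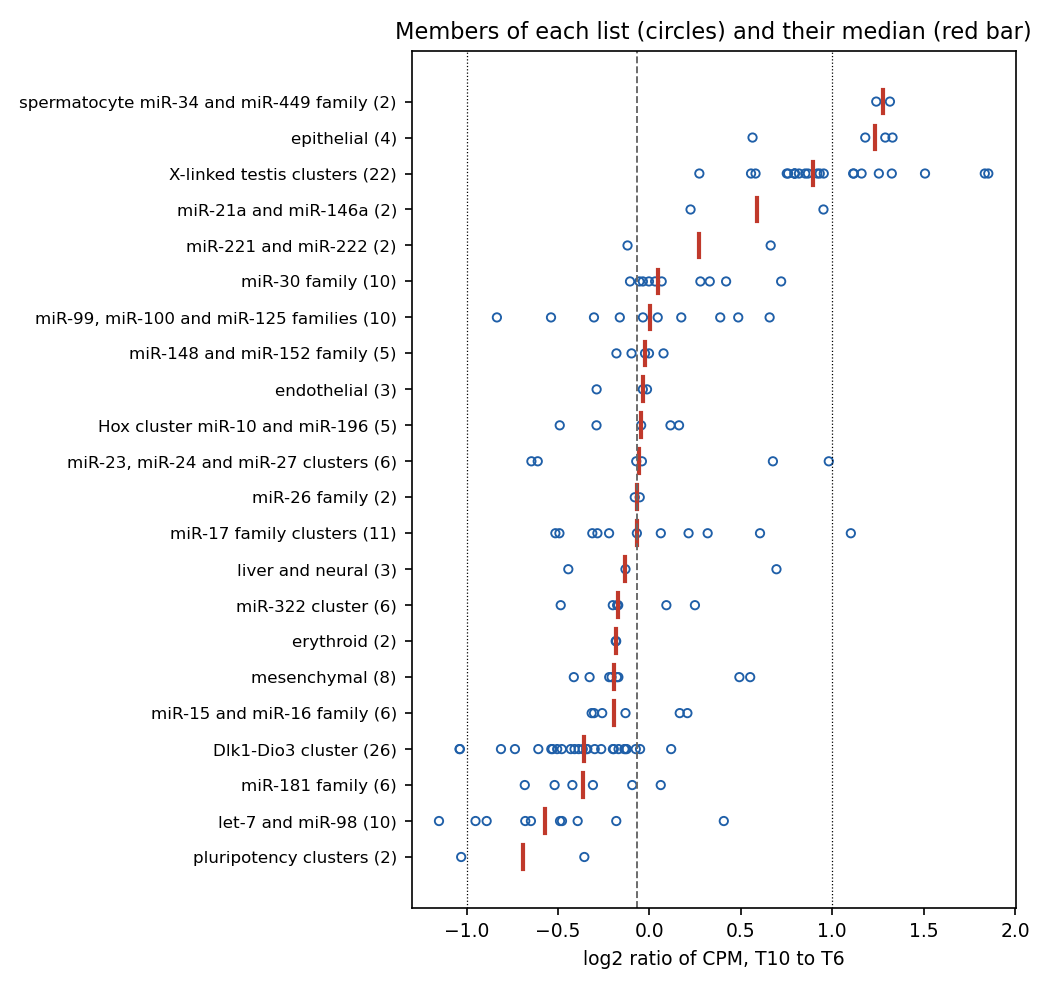
Log2 ratio of CPM, T10 to T6, of every miRNA that passed the filter, by list (circles, number in parentheses), with the median of each list as a red bar, for lists with at least 2 such members. The dashed line is the median of all 241 miRNAs (-0.07) and the dotted lines mark 2-fold. The X-linked testis clusters lie wholly to the right of 0, and let-7 and the Dlk1-Dio3 cluster almost wholly to the left.

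Germ cell miRNAs known from later stages were present at low levels at both ages. miR-34c-5p, abundant in spermatocytes and spermatids, rose from 59.9 to 142 CPM (log2 ratio 1.24, interval 1.12 to 1.36), and its level in TAD was 20424 CPM. miR-34a-5p, known as a target of p53, rose from 25.8 to 64.3 CPM (1.32). miR-449a-5p, which has the seed GGCAGUG of miR-34a-5p and is encoded in an intron of Cdc20b, was at 8.01 CPM in T6 and 6.05 CPM in T10, under the filter, and at 2771 CPM in TAD. Its interval, -0.82 to 0.01, spans 0. Of the 7 listed members of the family these 2, miR-34a-5p and miR-34c-5p, passed the filter, and both rose, where 8.30% of all miRNAs did. The members under the filter were mixed. miR-34b-5p was at 3.82 and 10.4 CPM (1.44) and miR-449c-5p at 0.90 and 4.03 CPM (2.17, interval 1.26 to 3.07) on 12 and 54 reads. miR-34b-3p was listed at 0 in T6 and was at 1.49 CPM (20 reads) in T10. miR-34c-3p was at 1.35 and 0.75 CPM (-0.85) on 18 and 10 reads, with an interval of -1.97 to 0.26 that spans 0.

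The miR-290 to miR-295 cluster, known from embryonic stem cells and early germ cells, had 2 passing members. miR-295-3p fell from 16.8 to 8.21 CPM (log2 ratio -1.03, interval -1.36 to -0.70), on 224 and 110 reads. miR-293-5p was at 13.5 and 10.5 CPM (-0.36, interval -0.67 to -0.04). miR-202-5p, known from the gonads of both sexes, was at 173 and 228 CPM (0.40). Its other arm, miR-202-3p, just under the filter, ran the other way at 12.7 and 6.57 CPM (-0.95, interval -1.32 to -0.58). miR-375-3p, at 99.8 and 86.7 CPM in T6 and T10, was at 9015 CPM in TAD.

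Among the miRNAs averaging 100 CPM or more, the largest ratio was that of miR-204-5p, which rose from 409 CPM in T6 to 1389 CPM in T10, a log2 ratio of 1.76 (interval 1.72 to 1.81) on 5472 and 18603 reads. It is encoded in an intron of Trpm3 (chr19:22750605-22750672), on the strand of the gene, and is known from the eye and kidney. Its level in TAD was 2048 CPM.

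Of the 6 listed miRNAs known from epithelia, 4 passed the filter and 3 of these rose, with a median log2 ratio of 1.24, against 8.30% and -0.07 among all 241 miRNAs. miR-203-3p, known from the epidermis, rose from 73.8 to 185 CPM (1.33). miR-429-3p, of the miR-200 family, which maintains the epithelial state by repressing Zeb1 and Zeb2, rose from 50.2 to 114 CPM (1.18), and miR-200a-3p from 7.78 to 19.03 CPM (1.29), passing the filter only through T10. Their neighbour miR-200b-3p was at 40.2 and 59.4 CPM (0.56). miR-200a, miR-200b and miR-429 lie on chr4:156053905-156055750, whereas miR-203 lies alone on chr12:112130880-112130955. The other listed members, miR-141-3p (4.27 and 5.22 CPM) and miR-205-5p (2.02 and 2.16 CPM), were under the filter.

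Lists of other cell types were examined beside these. No miRNA of the erythroid, endothelial, striated muscle, leukocyte or mesenchymal lists passed the filter and was counted as higher or lower. The erythroid list (2 of 7 listed members passing) summed to 3376 CPM in T6 and 2987 CPM in T10. Nearly all of this came from miR-486a-5p (1678 and 1476 CPM) and miR-486b-5p (1670 and 1472 CPM), which had near-equal values. How reads that match both were counted is not given in the sources used here, so the sum may hold the same reads more than once. miR-451a, which defines red blood cells, was at 8.98 and 6.87 CPM. Of the other erythroid members under the filter, miR-486a-3p was nearly level, at 9.20 and 9.11 CPM (-0.02), and the rest stood higher in T10. miR-144-3p, from the same locus as miR-451a, was at 1.27 CPM in T6 (17 reads) and 6.79 CPM in T10 (91 reads), a log2 ratio of 2.42 (interval 1.67 to 3.16). miR-486b-3p was at 2.39 and 5.08 CPM (1.08) and miR-144-5p at 6.66 and 10.8 CPM (0.70). The endothelial list (3 of 3 passing) summed to 331 and 319 CPM, with miR-126a-3p at 40.5 and 33.1 CPM. The leukocyte list (0 of 2 passing) summed to 12.2 and 10.8 CPM, with miR-142a-5p at 8.53 and 8.81 CPM. In that list miR-150-5p was at 3.67 and 2.02 CPM (-0.86, interval -1.54 to -0.19). miR-133a-3p of striated muscle was at 23.3 and 30.4 CPM. In the mesenchymal list 6 of 8 passing members were below 0 and the median was -0.19, yet its summed share was 10.7% in T6 and 14.9% in T10, because miR-143-3p holds nearly all its reads. miR-145a-3p was at 166 and 243 CPM (0.55), and its other arm, miR-145a-5p, at 106 and 91.0 CPM (-0.22). Their part in the differences above was not tested.

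The remaining lists held few miRNAs past 2-fold. In the miR-17 family clusters, known for promoting proliferation, 11 passed and 1 rose, where 8.30% of all miRNAs rose. This was miR-19a-3p, at 42.9 CPM in T6 and 92.0 CPM in T10 (1.10, interval 0.96 to 1.24). miR-19b-3p, processed from the same transcript, was at 298 and 453 CPM (0.61), whereas miR-17-5p of that transcript was at 38.9 and 27.2 CPM (-0.51). In the miR-23, miR-24 and miR-27 clusters none of 6 passed the rule, although miR-24-3p, at 21.6 and 42.5 CPM (0.98), was just short of it. miR-3074-5p, encoded on the strand opposite miR-24 (chr13:63301199-63301283), rose from 13.1 to 32.7 CPM (1.32). No member was counted as higher or lower in the lists of miR-30 (10 passing, median 0.05), miR-99, miR-100 and miR-125 (10, median 0.01), miR-181 (6, median -0.36), miR-148 and miR-152 (5, median -0.02), miR-15 and miR-16 (6, median -0.19), miR-322 (6, median -0.17), miR-10 and miR-196 (5, median -0.05), miR-26 (2, median -0.07), miR-221 and miR-222 (2, median 0.27), miR-21a and miR-146a (2, median 0.59) and of liver and neural miRNAs (3, median -0.13). The single passing miRNA of the miR-29 list, miR-29a-3p, was at 18.8 and 25.6 CPM (0.45). miR-146a-5p, known from innate immune signalling, was at 24.8 and 47.9 CPM (0.95). No miRNA of the H19 and Igf2 list was listed, and of the 3 listed of the miR-7200 series none passed the filter, miR-7210-5p being at 0.37 and 1.72 CPM.

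The 2 largest ratios rested on few reads in T6. miR-30f was at 0.97 CPM in T6 (13 reads) and 19.1 CPM in T10 (256 reads), a log2 ratio of 4.30 (interval 3.49 to 5.10). miR-339-5p, encoded in an intron of 3110082I17Rik (chr5:139369650-139369745), was at 1.20 CPM in T6 (16 reads) and 21.5 CPM in T10 (288 reads), a log2 ratio of 4.17 (interval 3.44 to 4.89). Both passed the abundance filter only through their level in T10. miR-30f shares a run of 10 bases with miR-30a-5p, starting at its 1st base and at the 2nd base of miR-30a-5p, which was far more abundant at 13097 and 17518 CPM (0.42). How reads that match both were counted is not given in the sources used here. Both arms of miR-342, in an intron of Evl (chr12:108658620-108658718), also rose, miR-342-5p from 17.3 to 49.8 CPM (1.53) and miR-342-3p from 54.6 to 138 CPM (1.34).

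Among the miRNAs that fell, 3 had not been placed in a list. miR-335-5p, in an intron of the imprinted gene Mest (chr6:30741299-30741396), fell from 65.0 to 31.3 CPM (log2 ratio -1.05), and its other arm miR-335-3p was at 37.6 and 21.7 CPM (-0.79). miR-1957a fell from 19.8 to 5.97 CPM (-1.73) on 264 and 80 reads. miR-3057-5p, which overlaps an exon of Apba3 (chr10:81271597-81271687), fell from 17.2 to 6.79 CPM (-1.34) on 230 and 91 reads. Both of these, and miR-295-3p, passed the filter only through T6. Of the 7 that fell, only let-7e-5p and miR-540-3p averaged 100 CPM or more. Just short of the threshold, miR-130a-3p was at 986 and 547 CPM (-0.85) and miR-672-5p, in an intron of Nexmif on the X chromosome, at 618 and 367 CPM (-0.75).

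**Figure D4:**
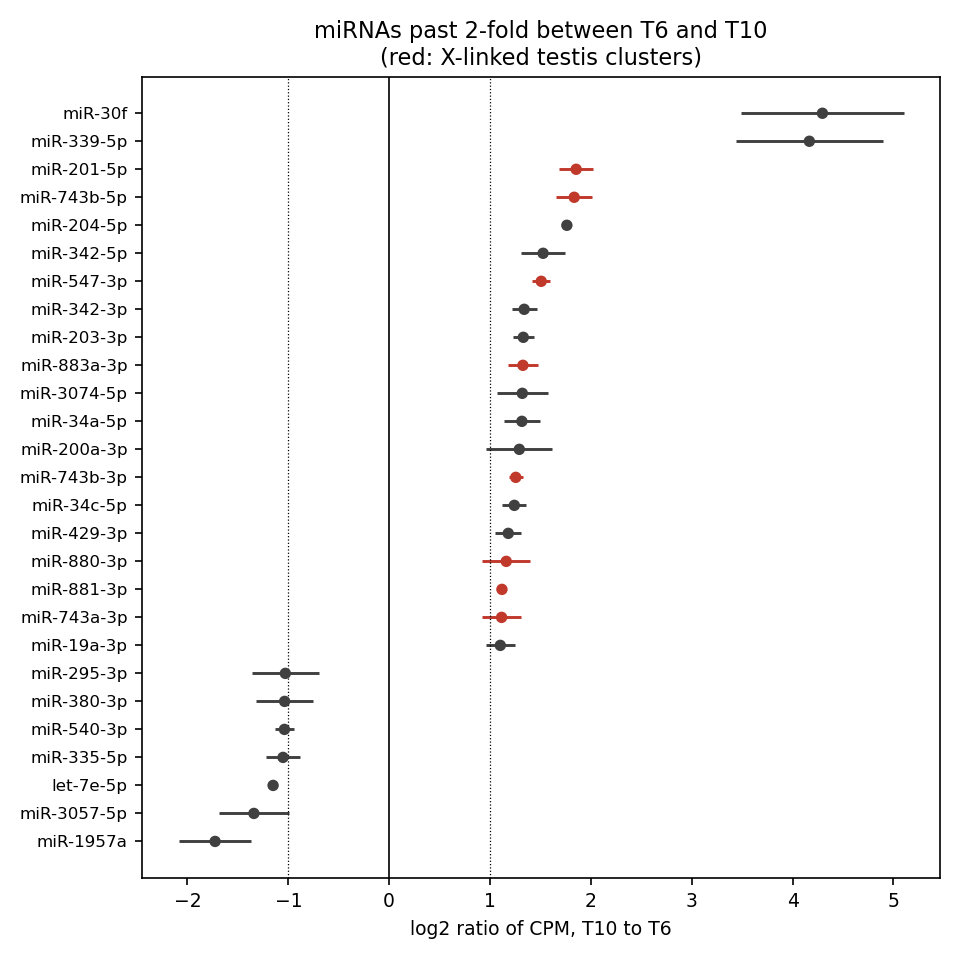
Log2 ratio of CPM, T10 to T6, of the 20 miRNAs that were higher and the 7 that were lower in T10 by at least 2-fold, with horizontal bars for the 95% interval of counting error. Dotted lines mark 2-fold, and members of the X-linked testis clusters are in red. miR-30f and miR-339-5p stand apart at 4.30 and 4.17, with the widest intervals, and the other 18 higher miRNAs lie between 1.10 and 1.85.

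The 5p and 3p arms of a hairpin are cut from one precursor, so they give a second reading of the same transcript within these libraries. Both arms passed the filter for 40 of the 71 hairpins with both arms listed. In 29 of the 40 (72.5%) both arms lay on the same side of 0, the median absolute difference between arms was 0.27 on the log2 scale, and no pair of the 40 differed by over 2-fold. Among the other 31 hairpins, which have an arm under the filter, the arms were over 2-fold apart in 7. In miR-339 the 5p arm rose (4.17), whereas miR-339-3p was at 7.03 and 8.14 CPM (0.21), a difference of 3.96 (interval 3.13 to 4.78). miR-34c-5p rose (1.24), whereas miR-34c-3p was at 1.35 and 0.75 CPM (-0.85). The latter rested on 18 and 10 reads, and its interval, -1.97 to 0.26, spans 0. The rest of the 7, with the 5p minus the 3p ratio, were miR-21a (-1.90), miR-465b (-1.80), miR-144 (-1.72), miR-486b (-1.27) and miR-202 (1.35). miR-21a-3p was at 1.65 and 7.17 CPM (2.12, interval 1.45 to 2.79) on 22 and 96 reads, whereas miR-21a-5p was at 2018 and 2359 CPM (0.23). Across the 40 hairpins the log2 ratios of the arms had a Pearson r of 0.775, given as a description, since the points share both libraries. In each of the 4 of these 40 hairpins with an arm past 2-fold, miR-342, miR-743b, miR-743a and miR-335, the arms lay on the same side, and in miR-342 and miR-743b both arms rose. Among the 40, the arms were furthest apart for miR-25, where miR-25-5p was at 48.2 and 34.3 CPM (-0.49) and miR-25-3p at 1657 and 2067 CPM (0.32), and for miR-145a.

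Base composition and length had weak relations to the ratio. Across the 211 passing miRNAs with a sequence, Pearson's r with the log2 ratio was -0.14 for GC content, -0.02 for length and -0.04 for the log10 mean level. Spearman's rho was -0.21, -0.01 and 0.06, in the same order. All are descriptions across miRNAs of the same libraries. The 15 miRNAs that begin with G had a median log2 ratio of 0.79 and 5 that rose, against medians of -0.13 for A, -0.23 for C and -0.04 for U, where 8.30% of all miRNAs rose. Those that rose were 2 of 52 with A, 1 of 31 with C and 11 of 113 with U. Several X-linked 3p arms begin with G, among them the 3 miR-465 arms that share a mature sequence. The median for G is the ratio of miR-465a-3p, so that sequence, counted 3 times, sits at the median.

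Cultured explants offered a comparison of the same starting ages in libraries that are not T6 or T10. The question was whether the miRNAs that differed between the uncultured testes also differed by starting age after 12 days of culture. With KSR, 22.0% of the 241 miRNAs were higher by 2-fold in T10-12K than in T6-12K and 4.56% were lower, with a median log2 ratio of 0.49. With AlbuMAX I, 4.15% were higher in T10-12A than in T6-12A and 7.47% lower, with a median of -0.18. Of the 20 miRNAs higher in T10, 19 were also above 0 with KSR, where 75.5% of all 241 were, and 16 of them by 2-fold. This count depended on the scaling. Under the 5 other scalings the ratios with KSR shifted by -0.58 to -0.16, and 10 to 15 of the 20 were higher by 2-fold, where 10.4 to 17.4% of all 241 were. With AlbuMAX I 13 of the 20 were above 0, where 34.9% of all were, and 1 by 2-fold. Both media gave a ratio above 0 for 13 of the 20, against 28.6% of all. Of the 7 miRNAs lower in T10, 5 were below 0 with KSR (24.5% of all) and 5 with AlbuMAX I (65.1% of all), and 3 with both (18.3% of all). The counts for these 7 were made as CPM only and not under the other scalings.

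miR-204-5p was at 723 CPM in T6-12K and 2148 CPM in T10-12K (log2 ratio 1.57), and at 1061 CPM in T6-12A and 1521 CPM in T10-12A (0.52). miR-881-3p was at 1132 and 4202 CPM with KSR (1.89) and at 3320 and 4268 CPM with AlbuMAX I (0.36). miR-34c-5p was at 514 and 1588 CPM with KSR (1.63) and at 1193 and 1445 CPM with AlbuMAX I (0.28), above its levels in T6 and T10 in all 4 cultured libraries. As CPM, these miRNAs were thus higher for the older starting age in each medium, with the larger ratio with KSR, but the ratio of miR-34c-5p with AlbuMAX I lay just below 0 for the values as deposited (-0.019) and for unscaled reads (-0.076). let-7e-5p was at 789 and 784 CPM with KSR (-0.01) and at 959 and 557 CPM with AlbuMAX I (-0.78), below its level in T10 in all 4. Under the other scalings its ratio with KSR lay between -0.59 and -0.17.

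miR-339-5p was the only miRNA of the 27 that was higher by 2-fold for the older starting age in all 3 pairs as CPM, at 4.33 and 10.2 CPM with KSR (1.23) and 1.76 and 7.22 CPM with AlbuMAX I (2.04), all low levels. Under the other scalings its ratio with KSR lay between 0.65 and 1.07, short of 2-fold in 4 of 5. miR-30f had ratios of 0.61 with KSR and -1.91 with AlbuMAX I. miR-540-3p was below 0 in both cultured pairs, at -0.45 with KSR and -1.22 with AlbuMAX I. miR-295-3p and miR-1957a were above 0 with KSR as CPM, at 0.57 and 1.13. The other scalings shifted all ratios with KSR by -0.58 to -0.16. The largest shift, with the values as deposited, takes miR-295-3p below 0. As CPM 75.5% of the 241 miRNAs stood higher in T10-12K than in T6-12K, and under the other scalings 42.7 to 68.0% did. The KSR counts are to be read against the share of the same scaling.

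**Figure D5:**
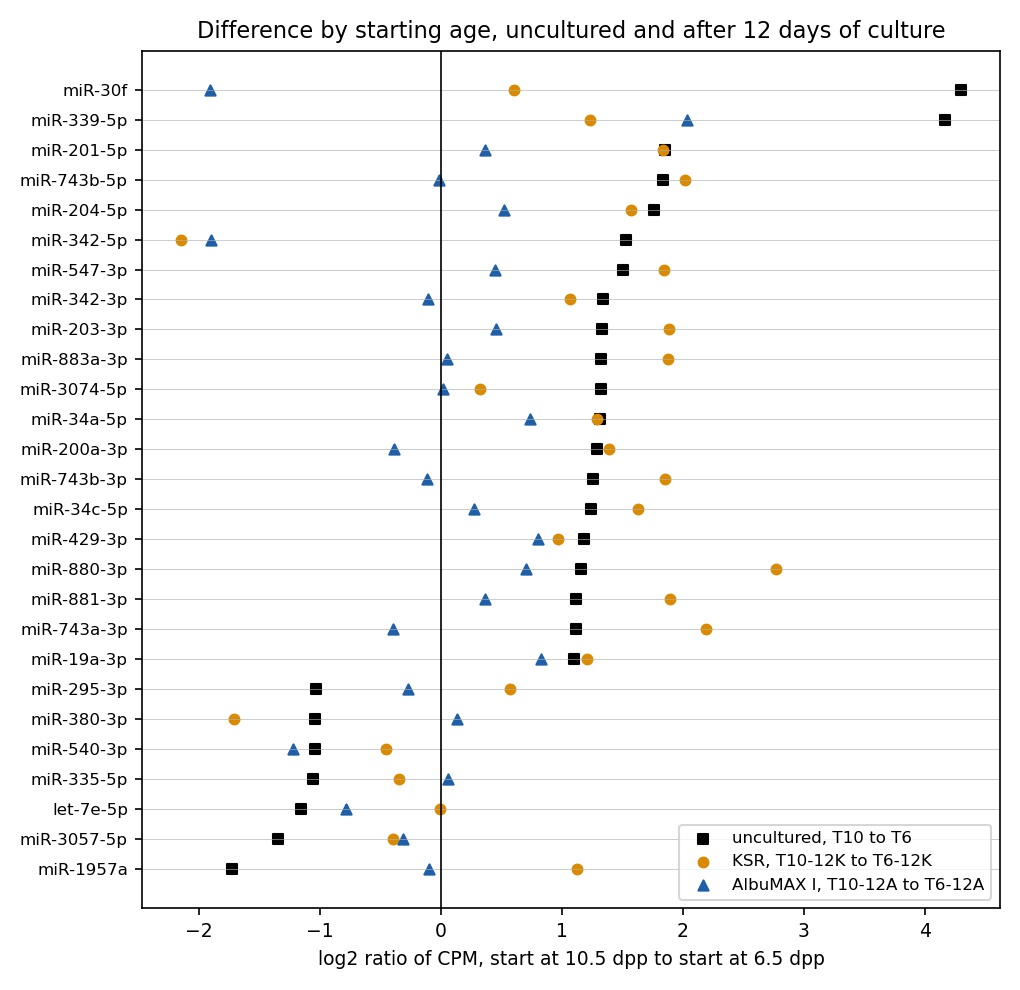
Log2 ratio of CPM by starting age, 10.5 dpp over 6.5 dpp, for the 20 higher and 7 lower miRNAs, in the uncultured pair (black squares), with KSR (orange circles) and with AlbuMAX I (blue triangles). With KSR 19 of the 20 higher miRNAs lie to the right of 0, with AlbuMAX I 13 do, and miR-342-5p lies to the left in both.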

How the data were processed

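The series holds small RNA libraries of CD1 mouse testis, 1 per condition. According to the methods and the submitters' processing notes, reads were trimmed of adaptors, checked with FastQC, aligned with Bowtie to the genome (mm10) and afterwards to miRBase 21, leaving out miRNAs with fewer than 50 reads. HTSeq and DESeq are named without a role. The authors deposited 1 signal per miRNA and library, in which the reads of each library had been divided by a factor of its own. How that factor was obtained is not given in the sources used here.

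Because the values were not counts, as the design had assumed, estimated reads were obtained by dividing each column by the worth of 1 read (0.615 in T6 and 0.648 in T10), of which every low value is a whole multiple. All values below 10000 reads came out whole within a tolerance of 0.0075 (100%), and 100% of reads were recovered in 35 simulated libraries of 331 miRNAs. In simulated pairs drawn around the T6 reads with counting error alone, 100% of 4-fold changes were called and 0 unchanged miRNAs were. These pairs were scaled with median-of-ratios factors. They held no variation between animals and no changes near 2-fold, so they say nothing about either. Reads were scaled to CPM. Log2 ratios carry 95% intervals from counting error, and a value of 0 was set to 5 reads. Shares carry Wilson intervals. No p-value was computed, since each side had 1 library. Alternatives covered the scaling, the filter, a pseudocount of 1 or 10 CPM and the fold.

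Named miRNAs were the 15 with the largest ratio in each direction at an average of 100 CPM or more and the 5 in each direction from 10 to 100 CPM. The 10 most abundant by mean CPM over T6 and T10, 9 the study discusses and the leading or extreme members of 28 lists were named too. Others were named after their values were seen. The miRNAs and lists were chosen with earlier results of these data known. Mature sequences came from RefSeq (GRCm38.p6) and matched 288 of 331 listed miRNAs and 211 of the 241 that passed. Host genes came from GENCODE mouse release 21 on GRCm38. Hairpins within 10 kb on one strand formed a cluster. Computations ran in Python 3.11.15 with matplotlib 3.10.9, pandas 2.3.3, scipy 1.17.1 and numpy 2.4.6.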

Additional observations from a re-analysis of the deposited data

Results flagged for a closer look

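miR-342-5p was singled out because its difference by starting age ran one way in the uncultured testes and the other way after culture in both media. The log2 ratio of T10 to T6 was 1.53 (17.3 and 49.8 CPM), whereas it was -2.14 with KSR (3.12 CPM in T6-12K and 0.71 CPM in T10-12K) and -1.90 with AlbuMAX I (16.8 and 4.50 CPM). The difference between these ratios was not tested, since each library stands alone, and T10-12K held 5 reads of it. The other arm of the hairpin, miR-342-3p, had ratios of 1.34 uncultured, 1.07 with KSR and -0.11 with AlbuMAX I. No other miRNA of the 27 had the opposite direction in both media.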

How the results depend on the processing

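The side of 0 held under the 5 scalings tried for all 22 X-linked and 9 let-7 members. It could not have changed, since each scaling moves all ratios by the same small amount. Their ratios nearest 0 were 0.27 (miR-883b-5p) and -0.18 (let-7i-5p). Of the 26 Dlk1-Dio3 members, 23 to 25 lay below 0. The scalings shifted all ratios of T10 to T6 by -0.04 to 0.08, and those by starting age more, by -0.58 to -0.16 with KSR and -0.35 to 0.14 with AlbuMAX I, and the median log2 ratio of all miRNAs lay between -0.11 and 0.01. Higher miRNAs numbered 20 to 24 over the scalings, and lower ones 7 or 8, except 3 with median-of-ratios factors or the values as deposited, where miR-540-3p, miR-335-5p, miR-380-3p and miR-295-3p lay just inside 2-fold. A mean of at least 100 CPM gave 6 higher and 2 lower, no filter 36 and 12, a 1.5-fold threshold 45 and 28, a 3-fold threshold 5 and 1, and a pseudocount of 10 CPM 15 and 1. At least 50 reads in both libraries gave 20 and 8, without miR-30f and miR-339-5p. Arms on the same side numbered 28 to 31 of 40. Of the 20 higher miRNAs, 18 or 19 lay above 0 with KSR, where 42.7 to 68.0% of all 241 did under the 5 scalings. With AlbuMAX I 10 to 16 did, where 18.7 to 44.8% of all 241 did. Both media gave a ratio above 0 for 10 to 15, and the share of all 241 was not computed for this under those scalings. By 2-fold, 10 (values as deposited) to 15 were higher with KSR, where 10.4 to 17.4% of all 241 were, against 16 and 22.0% as CPM. Identical mature sequences counted once, an alternative chosen after seeing the data, left 8 of 20 X-linked members higher. None of the 27 miRNAs counted as higher or lower between T6 and T10 turned its direction under a scaling or pseudocount, and none could have. Their ratios were past 2-fold, far beyond the shifts, and a pseudocount added to both sides keeps the sign. The ratio of miR-34c-5p with AlbuMAX I turned to -0.019 with the values as deposited and -0.076 with unscaled reads. No paired analysis was possible because each condition had 1 library.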
